A study of Homo sapiens with 8 samples.

Results

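The 8 genes described here code for ATP-binding cassette (ABC) drug exporters: ABCC1, ABCC2, ABCC3, ABCC4, ABCC5, ABCC10, ABCB6 and ABCG2. They were chosen by name, with earlier results of these data known. They are 8 of the 57820 genes in the deposited tables, and all 8 passed the filter on low counts that left 11218 genes for testing. The cells were A549, an established human lung adenocarcinoma line, and RNA was sequenced in 4 groups of 2 libraries each. In the first experiment, cells carried an MGA overexpression vector (the MGA group) or the empty vector (Empty). In the second, cells received a small interfering RNA against MYC (siMYC) or a negative control one (siNC). No vector name, dose, duration or siRNA sequence is given in the labels, and nothing there says that the 2 libraries of a group, lettered A and B, were grown apart. The replicate spread behind every p-value here may therefore be technical. The question asked of the exporters was whether their mRNA differed when MGA, a MAX-binding repressor of E-box genes, was raised or when MYC, the activator that shares the partner MAX, was lowered.

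ABC exporters spend ATP to move substrates across membranes. The ABCC members described here act mainly on organic anions and on drugs or metabolites that phase II enzymes have joined to glutathione, glucuronate or sulfate, whereas ABCG2 and ABCB6 work as dimers of shorter subunits. In lung cancer cells such exporters are known for lowering the amount of cytotoxic drugs inside the cell, and several are known targets of NRF2, the oxidative stress factor that is constitutively active in A549 because its inhibitor KEAP1 is mutated in this line.

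Libraries held between 820428 and 2129006 expected counts each, which is shallow, and the exporters with the lowest levels had as few as 14 counts in a library. Both manipulated genes differed in the labelled direction. MGA stood at 102500 and 103700 CPM (counts scaled to a common library total) in the MGA libraries, against 121.6 and 81.54 CPM in the Empty libraries, and MYC stood at 48.26 and 41.12 CPM in siMYC, against 219.3 and 182.5 CPM in siNC. MYC was also higher with MGA, at 295.6 and 347.0 CPM in MGA, against 233.9 and 241.0 CPM in Empty (log2 fold change 0.43, SE 0.122, adjusted p = 0.025). That call was lost without MGA B (0.32), Empty A (0.41) or Empty B (0.45), by DESeq2 and limma-trend, and with upper-quartile factors (0.35) or library sizes alone (0.30). The CPM values use trimmed-mean (TMM) library factors. Of the lung epithelial marker list, the keratins KRT7, KRT8 and KRT18 lay between 993 and 3220 TPM (RSEM's length-corrected transcript share) in every library, whereas NKX2-1, SFTPB and SFTPC, which define lung lineage and alveolar type 2 cells, were at 0 in all 8. EPCAM, an epithelial surface marker, was at 0 TPM in both MGA libraries, at 0 and 1.13 TPM in Empty, at 6.67 and 11.6 TPM in siMYC and at 14.8 and 14.3 TPM in siNC. KRT19 stood at 9.18 to 16.1 TPM in the MGA and Empty libraries and rose in the other experiment, with 155 and 119 TPM in siMYC, against 58.5 and 47.4 TPM in siNC (log2 fold change 1.23, adjusted p = 6e-07). Of the 8 genes of this list tested in edgeR, 2 rose with siMYC, KRT19 and AKR1C1 (0.61, adjusted p = 2.5e-06). The other 3 keratins fell: KRT18 at -0.36 (adjusted p = 0.0018), KRT7 at -0.19 (0.037) and KRT8 at -0.22 (0.047). The KRT18 and KRT7 calls were lost by limma-trend on either TPM scale. In this comparison 39.0% of all genes tested were called. With MGA none of the 8 rose and 2 fell, beside 8.96% of all genes called. AKR1C1 averaged 230 ± 8.48 CPM in MGA and 435 ± 19.2 CPM in Empty (log2 fold change -0.91, adjusted p = 1.1e-06 in edgeR). AKR1B10 was at -0.35 (adjusted p = 0.0094), a call lost by limma-trend on either TPM scale. Of the 4 leukocyte markers, PTPRC and CD3E were at 0 in all libraries. Of the 5 fibroblast markers, DCN was at 0 throughout, and the endothelial markers CDH5, KDR and VWF were at 0 as well.

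Promoter sequences are shown for 5 exporters because MYC and MGA both bind, with MAX, the E-box CACGTG, and because NRF2 binds antioxidant response elements whose core is TGACNNNGC. The RefSeq table of 300-base windows, which run from 250 bases before each start to 50 bases after it on GRCh38.p14, matched 6 of the 8 genes with 11 windows. Both motifs were searched on both strands. CACGTG was present in 3 of the 6 genes, in 4 of their 11 windows, and 7.26% of all 35116 promoters in the table hold it. TGACNNNGC was present in 4 of the 6 genes, in 4 of their 11 windows, and 13.3% of all promoters hold it. Since a gene can have several windows, the shares of all promoters compare with the counts of windows. Both motifs occur together in 1.4% of all promoters. In the lines below, written 5′ to 3′ on the strand of the gene, capitals mark these motifs. The windows are chr2:219218909-219219208 (minus strand) for ABCB6, chr6:43427291-43427590 (plus strand) for ABCC10, chr4:88158810-88159109 (minus strand) for ABCG2, chr13:95301402-95301701 (minus strand) for ABCC4 and chr10:99782390-99782689 (plus strand) for ABCC2.
ABCB6: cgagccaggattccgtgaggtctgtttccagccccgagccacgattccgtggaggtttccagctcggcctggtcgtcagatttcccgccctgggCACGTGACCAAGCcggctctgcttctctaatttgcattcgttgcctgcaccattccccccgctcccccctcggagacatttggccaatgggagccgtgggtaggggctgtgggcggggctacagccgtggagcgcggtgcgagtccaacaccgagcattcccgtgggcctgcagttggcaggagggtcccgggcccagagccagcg
ABCC10: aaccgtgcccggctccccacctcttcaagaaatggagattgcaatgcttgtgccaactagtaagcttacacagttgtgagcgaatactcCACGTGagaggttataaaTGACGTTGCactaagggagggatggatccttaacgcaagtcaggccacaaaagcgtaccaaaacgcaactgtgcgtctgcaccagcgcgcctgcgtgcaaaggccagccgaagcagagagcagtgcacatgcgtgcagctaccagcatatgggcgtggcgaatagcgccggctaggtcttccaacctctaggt
ABCG2: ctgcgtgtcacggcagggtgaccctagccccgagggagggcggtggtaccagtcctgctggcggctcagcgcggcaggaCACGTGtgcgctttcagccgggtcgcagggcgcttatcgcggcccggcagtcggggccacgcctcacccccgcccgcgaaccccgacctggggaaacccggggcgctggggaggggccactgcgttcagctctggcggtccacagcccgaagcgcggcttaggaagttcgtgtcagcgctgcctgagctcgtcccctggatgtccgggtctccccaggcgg
ABCC4: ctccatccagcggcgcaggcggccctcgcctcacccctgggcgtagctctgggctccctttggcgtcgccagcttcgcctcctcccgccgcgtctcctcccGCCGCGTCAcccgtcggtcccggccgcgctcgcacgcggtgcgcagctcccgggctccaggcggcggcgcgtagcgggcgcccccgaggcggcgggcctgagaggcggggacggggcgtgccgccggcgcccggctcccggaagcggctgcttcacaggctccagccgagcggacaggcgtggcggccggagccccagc
ABCC2: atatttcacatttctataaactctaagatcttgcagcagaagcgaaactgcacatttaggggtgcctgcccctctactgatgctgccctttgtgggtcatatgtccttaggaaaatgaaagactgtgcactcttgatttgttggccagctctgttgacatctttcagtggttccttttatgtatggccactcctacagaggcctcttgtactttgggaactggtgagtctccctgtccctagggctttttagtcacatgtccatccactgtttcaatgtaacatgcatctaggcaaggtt

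In ABCB6 the E-box began 156 bases before the start and overlapped a TGACNNNGC match that began 152 bases before it. In ABCC10 the E-box lay 161 bases before the start and a separate TGACNNNGC match 143 bases before it. The other ABCC10 window, chr6:43427613-43427912, holds neither motif. The ABCG2 window had CACGTG 171 bases before the start and no TGACNNNGC; a second ABCG2 window that overlaps it holds the same E-box. A further ABCG2 window, chr4:88159241-88159540, holds TGACNNNGC and no CACGTG, and is the one by which ABCG2 counts among the 4 genes with that motif. The ABCG2 windows chr4:88231577-88231876 and chr4:88158590-88158889 hold neither motif. The ABCC4 window held TGACNNNGC, 149 bases before the start, and no CACGTG. Neither motif was in the ABCC2 window printed here or in the ABCC5 window. These matches describe letters in 1 window and were not tested for binding.

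Levels of the 8 genes fell into a high and a low tier. On the TPM scale, which divides by transcript length, ABCC3, ABCC1 and ABCC2 were the 3 highest exporters in each of the 8 libraries, and together they held 71.0% to 84.2% of the summed exporter TPM. ABCC3, a basolateral exporter of glucuronides and bile salts, averaged 163 ± 14.0 TPM in MGA and 195 ± 13.5 TPM in Empty. In the other experiment it averaged 331 ± 57.9 TPM in siMYC and 135 ± 12.7 TPM in siNC (SD, n = 2 for every group mean). ABCB6 came next after these 3 in all 4 groups, and its group means lay between 25.6 and 69.3 TPM. ABCC5 was lowest in all 4 groups, with means between 8.9 and 14.0 TPM.

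Neighbours in this order often could not be separated. ABCC1 and ABCC2 overlapped in the MGA libraries, where they averaged 133 ± 5.76 and 126 ± 5.01 TPM, and ABCC3 and ABCC2 overlapped in the siNC libraries. In siNC, the libraries also overlapped at each step between neighbours below ABCC1, across ABCB6, ABCC4, ABCG2, ABCC10 and ABCC5. In siMYC only ABCC4 and ABCG2 overlapped, at 47.7 ± 1.5 and 44.4 ± 16.3 TPM. The order of ABCC1 and ABCC2 differed between the experiments: ABCC1 was above ABCC2 in the MGA and Empty means, and below it in the siMYC and siNC means.

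**Figure D1:**
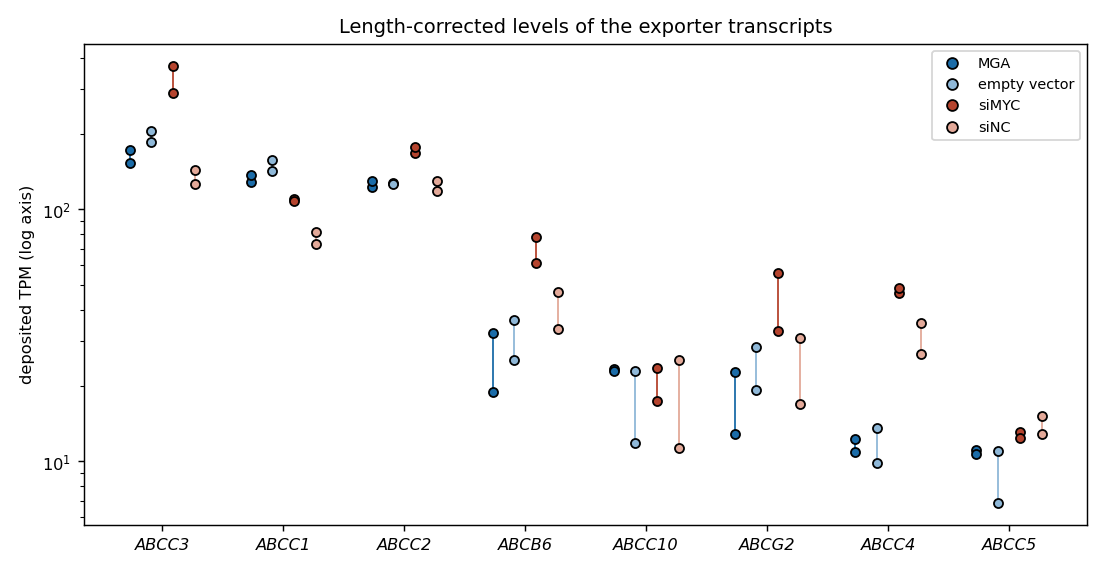
Level of each exporter in TPM (log axis) for the 8 libraries, with a point for each library and a line that joins the 2 libraries of a group. ABCC3, ABCC1 and ABCC2 sit above the other 5 genes in all 4 groups.

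Silencing of MYC went with higher mRNA of most of the exporters. With edgeR's quasi-likelihood test and Benjamini-Hochberg adjustment over all 11218 genes, 6 of the 8 exporters rose, none fell, and 2, ABCC5 and ABCG2, were not called. DESeq2 and limma-trend on either TPM scale called 2 of the 8, ABCC3 and ABCC2, and the count in edgeR was also 2 without siNC A and 3 without siMYC B. With edgeR on all libraries, 39.0% of all genes tested were called in this comparison, 19.0% as higher and 20.0% as lower. DESeq2 called 1971 of 9478 genes, and limma-trend called 1245 and 1191 of 11218 on the TPM scales. The 39.0% is therefore not the share to set beside the exporter counts of those methods, or of the fits without a library. In the edgeR test on all libraries, an unadjusted p under 0.05 was reached by the same 6 of 8 exporters and by 46.9% of all genes. The median log2 fold change was 0.37 over the 8 exporters and 0.01 over all genes. CPM values of the siMYC and siNC libraries did not overlap for 6 of the 8, all 6 higher in siMYC. Of all genes, 67.6% were without overlap, 34.0% with siMYC higher. The exporter list was chosen with earlier results of these data known, so its counts beside these shares are a description.

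ABCC3 had the highest fold change among the 8. It stood at 784.0 and 810.0 CPM in siMYC, against 331.5 and 394.2 CPM in siNC. Both siMYC libraries lay far above both siNC libraries, and the gene rose 2.19-fold (95% interval 1.93 to 2.49; log2 fold change 1.13, SE 0.09, adjusted p = 1.2e-10). Its share of the summed exporter TPM was 38.9% and 42.8% in the siMYC libraries, against 31.8% and 26.5% in the siNC libraries. The call was kept when any 1 of the 4 libraries was left out, with log2 fold changes between 1.01 and 1.25.

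The other high-level exporters rose by less. ABCC2, which moves bilirubin glucuronides and other conjugates across apical membranes, stood at 529.9 and 574.4 CPM in siMYC, against 422.2 and 473.5 CPM in siNC. The groups were separate but close, and the gene rose 1.23-fold (log2 fold change 0.30, SE 0.087, adjusted p = 0.0074). ABCC1, an exporter of leukotriene C4, glutathione conjugates and anthracyclines, stood at 406.7 and 407.5 CPM in siMYC, against 321.5 and 369.1 CPM in siNC. The siMYC libraries were nearly equal and both above siNC, for a 1.18-fold rise (log2 fold change 0.23, SE 0.09, adjusted p = 0.04). The ABCC2 call was lost without siNC A (log2 fold change 0.22) and without siMYC B (0.23), and the ABCC1 call without siNC A (0.14), siMYC A (0.23) or siMYC B (0.22). Under 11 other settings with all 4 siRNA libraries, ABCC2 was called in 11 and ABCC1 in 6.

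ABCC4 exports cyclic nucleotides, prostaglandins and nucleotide analogue drugs. It stood at 148.4 and 170.6 CPM in siMYC, against 101.4 and 128.9 CPM in siNC, with no overlap, and rose 1.37-fold (log2 fold change 0.45, SE 0.128, adjusted p = 0.006). ABCC5, its relative with cyclic nucleotides and nucleoside analogues among its substrates, stood at 33.09 and 27.61 CPM in siMYC, against 40.01 and 32.66 CPM in siNC. The ABCC5 groups overlapped, and the gene was not called (log2 fold change -0.23, 95% interval -0.67 to 0.21, adjusted p = 0.42). The ABCC4 call was lost without siNC A (log2 fold change 0.30) and without siMYC B (0.35).

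ABCC10, an exporter that carries taxanes, and ABCB6, a transporter with porphyrins among its substrates, rose with higher fold values than ABCC1 and ABCC2, on far lower counts. ABCC10 stood at 32.17 and 25.16 CPM in siMYC, against 18.57 and 12.83 CPM in siNC. Its groups did not overlap, and it rose 1.88-fold (log2 fold change 0.91, SE 0.248, adjusted p = 0.0046). ABCB6 stood at 68.02 and 83.46 CPM in siMYC, against 26.43 and 60.06 CPM in siNC. The siNC libraries differed 2.27-fold from each other, more than the 1.68-fold rise of the gene (log2 fold change 0.75, SE 0.208, adjusted p = 0.0051). Without siNC A the ABCB6 value was 0.32 and was not called, and without siNC B it was 1.49. The ABCC10 call was lost without siNC B (0.63) and without siMYC A (0.70).

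ABCG2, which exports topotecan, mitoxantrone and urate, stood at 48.26 and 71.8 CPM in siMYC, against 50.72 and 66.48 CPM in siNC. The siMYC values enclosed the siNC values, and the gene was not called (log2 fold change -0.01, 95% interval -0.37 to 0.36, adjusted p = 0.98). On the TPM scale it stood at 32.86 and 55.96 in siMYC, against 16.93 and 31.01 in siNC.

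**Figure D2:**
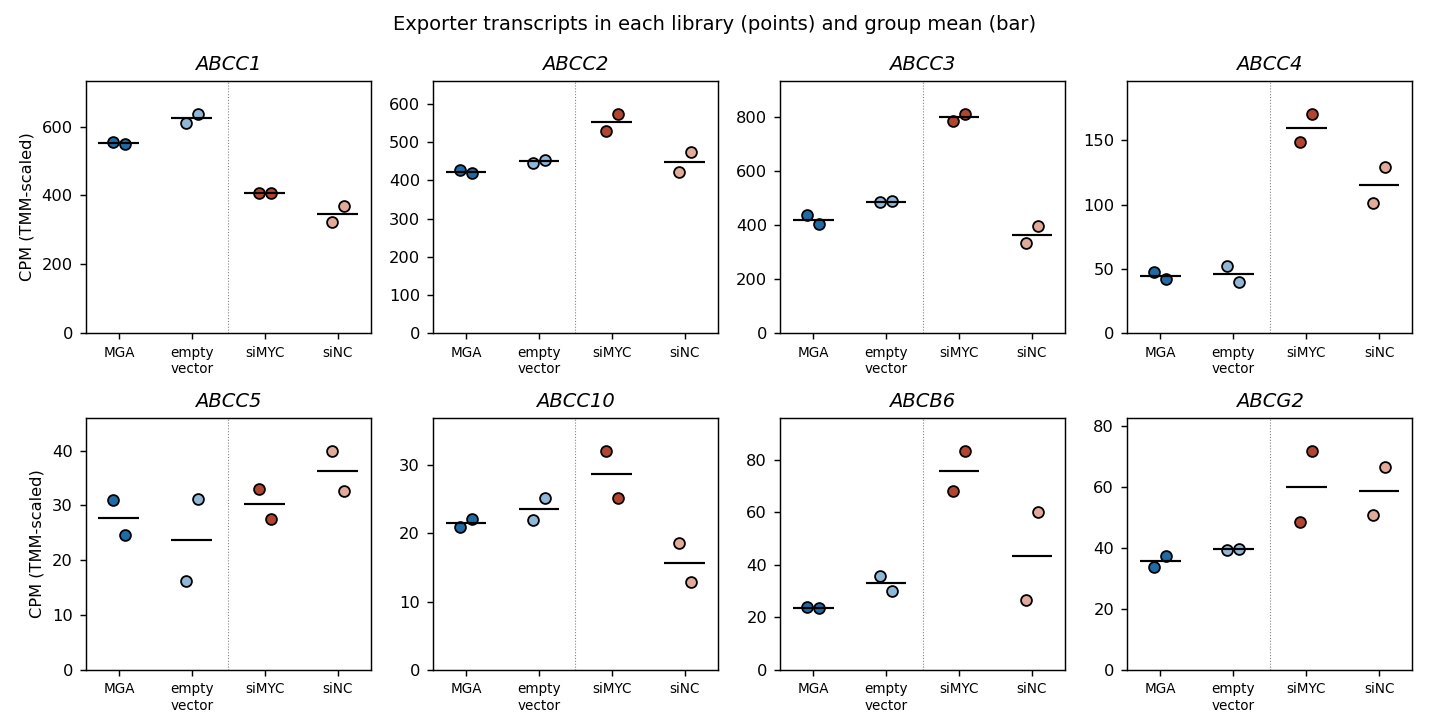
CPM of each exporter in each library, with 1 panel per gene, a point for each library and a bar at the group mean. In the siMYC experiment both siMYC points lie above both siNC points for 6 genes, and for ABCC5 and ABCG2 the points overlap.

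Of the markers of other cell types, CD68 and COL1A1 were higher in the siMYC libraries than in the siNC libraries. Of the leukocyte list 1 of 4 genes passed the filter, and the list summed to 38.3 to 41.8 TPM in siMYC and 16.4 to 18.3 TPM in siNC, nearly all of it CD68. The fibroblast list, of which 1 of 5 genes passed, summed to 86.1 to 87.7 TPM in siMYC and 7.85 to 20.0 TPM in siNC, nearly all of it COL1A1. The defining markers PTPRC, CD3E and DCN were at 0 in these 4 libraries. Every library of this A549 series had both other genes, CD68 at 16.4 to 174 TPM and COL1A1 at 6.17 to 87.2 TPM. The reason for their rise with siMYC was not tested.

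Overexpression of MGA gave no called change in any of the 8 exporters. By the same test, 0 of 8 were called, whereas 8.96% of all genes tested were (4.96% as higher, 4% as lower). Of the exporters, 1 of 8, ABCC3, had an unadjusted p under 0.05, as did 22.3% of all genes, and DESeq2 and limma-trend on TPM also called 0 (DESeq2 gave no adjusted p for ABCC5 and ABCC10). Of the 8 log2 fold changes, 7 were negative and 1 was positive, with a median of -0.14, against 0.01 over all genes. The CPM values of the MGA and Empty libraries did not overlap for 5 of the 8, all 5 lower in MGA. Of all genes, 52.6% were without overlap, 27.6% with MGA higher and the remainder of the 52.6% with MGA lower.

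ABCC3 stood at 436.1 and 401.9 CPM in MGA, against 483.9 and 488.1 CPM in Empty. Both MGA libraries were below both Empty libraries (log2 fold change -0.21, SE 0.1, adjusted p = 0.21). ABCC1 stood at 556.5 and 549.1 CPM in MGA, against 610.1 and 636.8 CPM in Empty, again without overlap and not called (log2 fold change -0.17, SE 0.092, adjusted p = 0.27). ABCC2 was closer, at 427.9 and 418.3 CPM in MGA and 446.9 and 454.5 CPM in Empty (log2 fold change -0.09, adjusted p = 0.64). With library sizes alone in place of TMM factors, a scaling under which the MGA transcript's 9.54% and 9.68% of the counts lowers every other gene, the median of all genes was -0.12. ABCC3 was then called at -0.34 and ABCC1 at -0.30, both below that median.

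Low counts left wide intervals for the other 5 genes in the MGA experiment. ABCB6 stood at 23.72 and 23.37 CPM in MGA, against 35.89 and 29.98 CPM in Empty. Its groups were separate, but the log2 fold change of -0.48 had a 95% interval of -1.22 to 0.26 (adjusted p = 0.47). ABCG2 stood at 33.76 and 37.39 CPM in MGA, against 39.36 and 39.57 CPM in Empty (log2 fold change -0.16, adjusted p = 0.8); both MGA libraries were lower. ABCC4, ABCC5 and ABCC10 overlapped between the groups. ABCC4 stood at 47.44 and 42.06 CPM in MGA, against 52.1 and 39.57 CPM in Empty. ABCC10 stood at 20.98 and 22.2 CPM in MGA, against 22.0 and 25.18 CPM in Empty. ABCC5, the 1 gene with a positive value, stood at 31.02 and 24.53 CPM in MGA, against 16.21 and 31.18 CPM in Empty. The log2 value for ABCC5 was 0.25 (SE 0.314, adjusted p = 0.69), and -0.15 without Empty A.

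**Figure D3:**
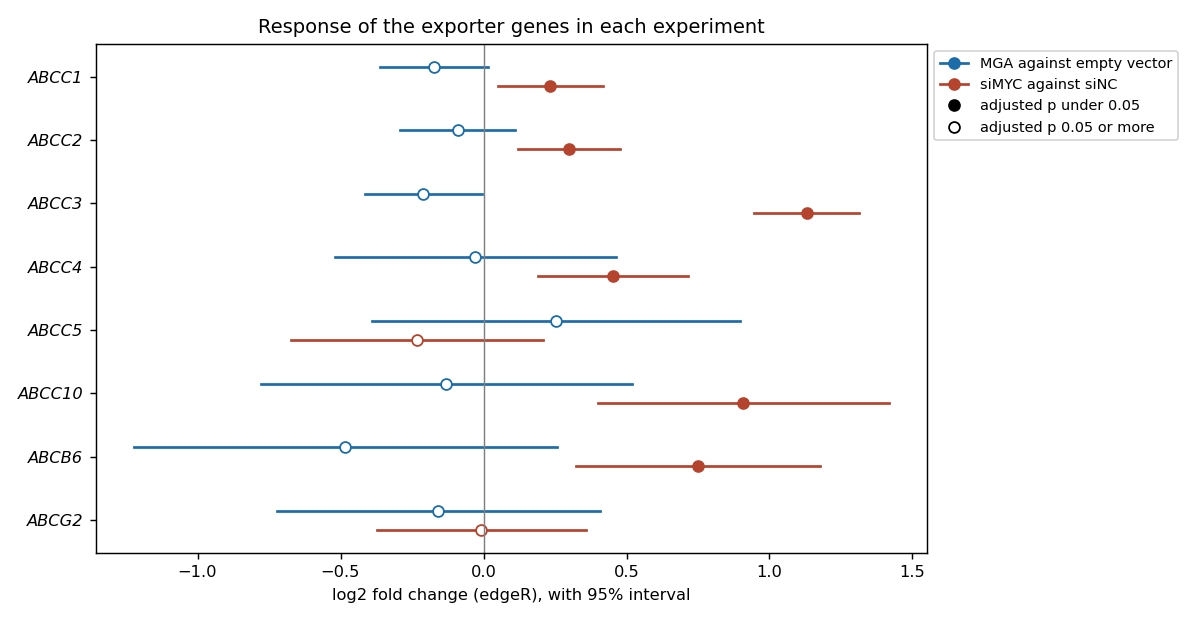
Log2 fold change of each exporter with MGA against empty vector and with siMYC against siNC, with 95% intervals from edgeR; filled points have an adjusted p under 0.05. The MGA values lie between -0.48 and 0.25 with none filled, and 6 of the siMYC values are filled and positive.

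The 2 responses were compared directly by a contrast in the same fit, the MGA response minus the siMYC response. The difference was called as lower for 4 of the 8 exporters, ABCC1, ABCC2, ABCC3 and ABCB6, and as higher for none. Of all genes tested, 18.5% were called here, 8.22% as lower and 10.3% as higher. An unadjusted p under 0.05 was reached by 5 of the 8 exporters and by 30.8% of all genes. For ABCC3 the MGA response was -0.21 and the siMYC response 1.13, a difference of -1.34 (SE 0.134, adjusted p = 4.2e-08). For ABCB6 the responses were -0.48 and 0.75, a difference of -1.23 (SE 0.418, adjusted p = 0.039), which was -0.80 without siNC A (not called) and -1.98 without siNC B. The difference was -0.41 for ABCC1 (SE 0.129, adjusted p = 0.027) and -0.39 for ABCC2 (SE 0.131, adjusted p = 0.039).

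ABCC10 and ABCC4, which rose with siMYC and were not called with MGA, were not called for the difference, at -1.04 (SE 0.405, adjusted p = 0.075) and -0.48 (SE 0.273, adjusted p = 0.24). ABCC5 was at 0.49 and ABCG2 at -0.15, neither called. Only ABCC3 kept the call when any 1 library of the MGA experiment was left out, and the count over the 8 genes was then 1, while without siNC A or without siMYC B it was 2. The experiments also differ in their controls, so method of manipulation, experiment and any difference in culture cannot be told apart in this contrast.

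Several exporters stood at different levels in the 2 control groups. ABCC1 was at 610.1 and 636.8 CPM in Empty and at 321.5 and 369.1 CPM in siNC. ABCC4 was at 52.1 and 39.57 CPM in Empty and at 101.4 and 128.9 CPM in siNC. ABCC2 was close in both, at 446.9 and 454.5 CPM in Empty and 422.2 and 473.5 CPM in siNC. CD68 also stood apart, at 174 and 162 TPM in Empty and 18.3 and 16.4 TPM in siNC. These levels are set side by side without a test.

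The deposited gene tables give an effective length with each count, averaged over the transcripts that the quantifier judged present, and it varied widely for 3 exporters. The highest value across libraries was 2.84 times the lowest for ABCC10, 2.21 times for ABCG2 and 1.98 times for ABCB6, against 1.09 to 1.33 times for the other 5. The TPM and CPM scales therefore diverged for ABCC10 and ABCG2 in the siMYC comparison. For ABCB6 the siMYC value stayed between 0.74 and 0.84 under 11 other settings. Its MGA B library was 1.71 times MGA A in TPM and 0.985 times in CPM. With limma-trend on log2(TPM + 1), the siMYC value was 0.87 for ABCG2, against -0.01 in the count test, and 0.25 for ABCC10, against 0.91. ABCB6 had a fractional count in 6 of 8 libraries, ABCC10 in 5 and ABCC3 in 2, which happens when reads are divided among genes. In a later GENCODE annotation on GRCh38, exons of ABCB6 overlap those of AC068946.2 on the same strand and exons of ABCC10 overlap those of DLK2 on the opposite strand. The strand setting of the quantification is not given in the sources used here. Whether reads were shared with these 2 genes was not tested, so the ABCB6 and ABCC10 values are uncertain.

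**Figure D4:**
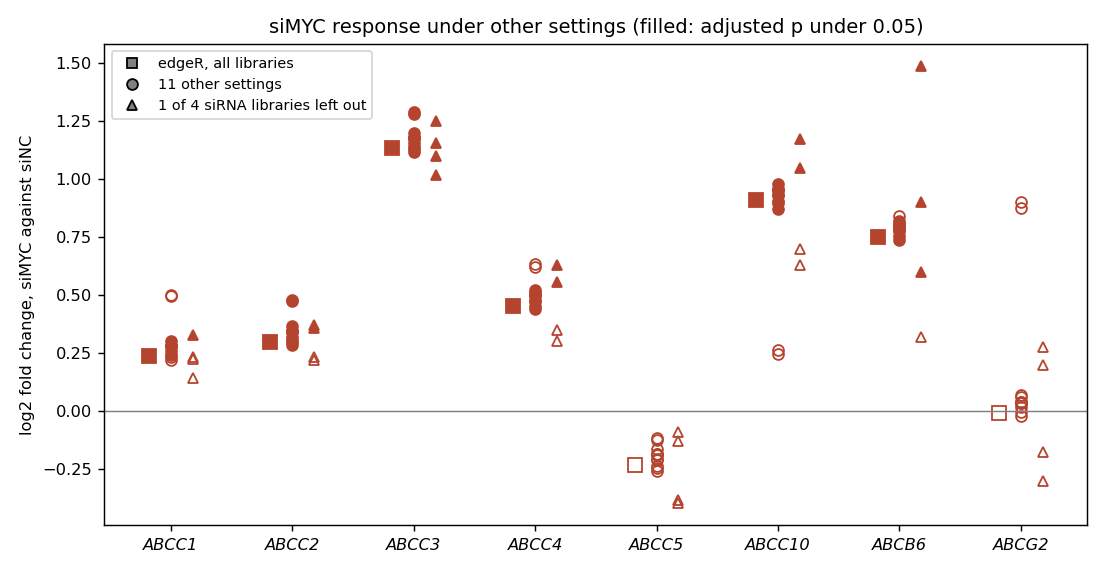
Log2 fold change of each exporter in siMYC against siNC with edgeR on all libraries (squares), under 11 other settings (circles) and with 1 of the 4 siRNA libraries left out (triangles); filled symbols have an adjusted p under 0.05. ABCC3 stays filled throughout, and ABCG2 has points on both sides of 0.

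Of 39 other members of the ABC superfamily, 18 passed the filter. The 21 that did not had at most 9.93 counts in any library, and 8 of them had 0 in all; ABCB1, the classic multidrug exporter, was among the 21 and reached at most 3 counts. With siMYC, 4 of the 18 rose and 4 fell, with a median log2 fold change of -0.04, beside the 0.37 of the exporters and the 0.01 of all genes, of which 39.0% were called. ABCA1, the cholesterol efflux transporter, averaged 41.7 ± 6.03 CPM in siMYC and 15.3 ± 1.44 CPM in siNC (log2 fold change 1.45, adjusted p = 5.1e-06). The ABCA1 call was lost by limma-trend on log2(TPM + 1), at 1.095. ABCA3, the lipid transporter of lamellar bodies, averaged 90.7 ± 5.41 CPM in siMYC and 56.4 ± 1.01 CPM in siNC (0.68, adjusted p = 0.0005). ABCA7 and ABCD4 also rose.

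The members that fell with siMYC included ABCE1 and ABCF2, ABC proteins without membrane domains; ABCE1 recycles ribosomes. ABCE1 averaged 81.4 ± 7.24 CPM in siMYC and 202 ± 12.1 CPM in siNC (log2 fold change -1.32, adjusted p = 1.7e-09). ABCF2 averaged 68.0 ± 0.688 CPM in siMYC and 159 ± 10.9 CPM in siNC (-1.22, adjusted p = 2.1e-08). The ABCF2 call was lost by limma-trend on either TPM scale (-1.22 and -1.24). ABCF1 and the peptide transporter TAP2 fell as well; TAP2 is uncertain, since 2 gene entries carry its symbol and its siMYC value on the TPM scale was -0.13.

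With MGA, 1 of the 18 rose and 2 fell, beside 8.96% of all genes called. ABCA1 averaged 206 ± 3.35 CPM in MGA and 107 ± 4.85 CPM in Empty (log2 fold change 0.95, adjusted p = 4e-05). ABCE1 averaged 93.1 ± 10.4 CPM in MGA and 157 ± 7.77 CPM in Empty (-0.76, adjusted p = 0.0013), and this call was lost without MGA A (-0.64). ABCA2 fell by 0.86 on the log2 scale (adjusted p = 0.0067), a call lost without Empty A or MGA B and by DESeq2. None of the 18 was called with MGA by limma-trend on either TPM scale.

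**Figure D5:**
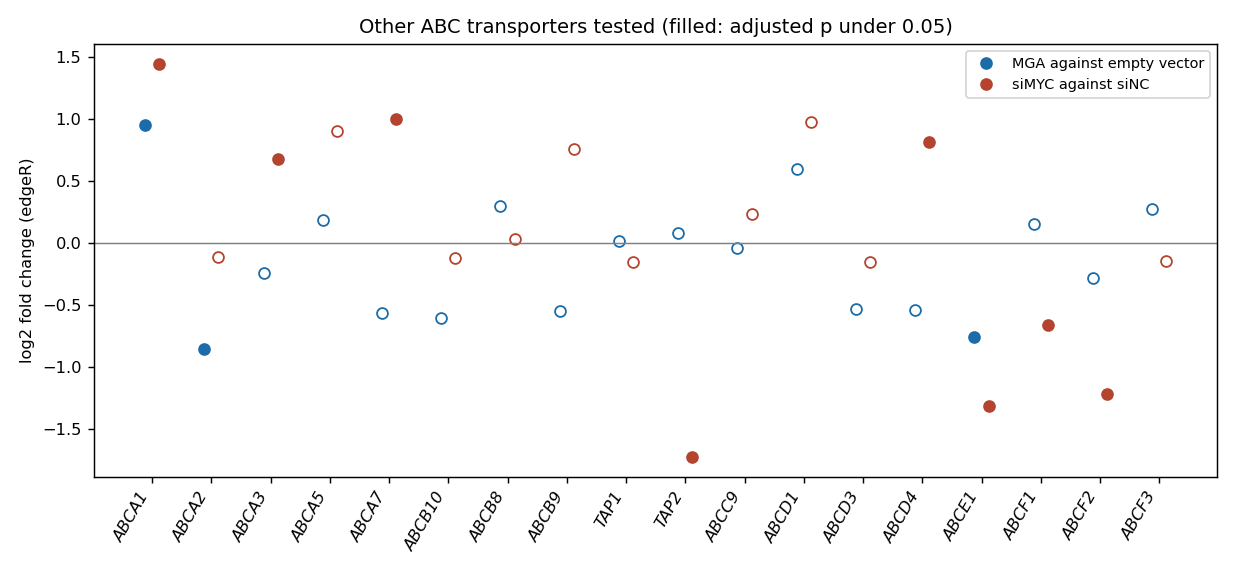
Log2 fold change with MGA against empty vector and with siMYC against siNC for the 18 other ABC genes that passed the filter; filled points have an adjusted p under 0.05. With MGA 3 points are filled, and with siMYC 4 filled points lie above 0 and 4 below it.

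Glutathione and conjugation enzymes supply the exporters with substrates. Of 19 tested, 4 rose and 2 fell with siMYC, beside 39.0% of all genes called in either direction. GGT1, which breaks down extracellular glutathione and its conjugates, averaged 217 ± 7.27 CPM in siMYC and 106 ± 21.2 CPM in siNC (log2 fold change 1.02, adjusted p = 2.2e-07). GSR, which regenerates reduced glutathione, averaged 319 ± 57.0 CPM in siMYC and 483 ± 50.3 CPM in siNC (-0.61, adjusted p = 2.8e-05). The GSR call was lost by limma-trend on either TPM scale (-0.34 on both). GSTZ1 and GSTK1, both glutathione transferases, rose by 0.88 and 0.51 on the log2 scale, but neither was called by DESeq2. The GSTZ1 call was also lost without siNC B (0.55) or siMYC B (0.72), and the GSTK1 call without siNC A (0.42) or siMYC B (0.44). With MGA none of the 19 rose and 2 fell, beside 8.96% of all genes called, UGT1A6 at -0.997 and UGT1A1 at -0.71. The UGT1A genes share exons, so their counts are uncertain. The UGT1A1 call was lost when any 1 of the 4 libraries was left out (-0.74 to -0.68) and by DESeq2. Neither UGT1A gene was called by limma-trend on either TPM scale.

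Among 22 regulators of xenobiotic and stress responses tested, 4 rose and 0 fell with MGA, and 7 rose and 1 fell with siMYC, beside 8.96% and 39.0% of all genes called. NFE2L2, which encodes NRF2, averaged 225 ± 6.44 CPM in MGA and 143 ± 27.7 CPM in Empty (log2 fold change 0.66, adjusted p = 0.0026), a call lost without Empty A. AHR, the receptor for aryl hydrocarbons, averaged 199 ± 10.7 CPM in MGA and 102 ± 7.45 CPM in Empty (0.95, adjusted p = 0.00028). MAFF, a small partner of NRF2, rose by 1.08 with MGA on the log2 scale. The remaining call with MGA, MAFG at 0.37, was lost when any 1 of the 4 libraries was left out (0.31 to 0.42), by DESeq2, with upper-quartile factors and with library sizes alone. None of these 4 calls was kept by limma-trend on either TPM scale, where AHR was at 0.92 and 0.94 and MAFF at 1.08 and 1.09. With siMYC, NFE2L2 was at 0.08 (adjusted p = 0.67). PPARA, a nuclear receptor of fatty acids, averaged 20.6 ± 6.59 CPM in siMYC and 6.29 ± 1.82 CPM in siNC (1.70, adjusted p = 0.00056). The PPARA call was lost by limma-trend on either TPM scale (1.34 and 1.80). YBX1 averaged 451 ± 19.8 CPM in siMYC and 700 ± 1.6 CPM in siNC (-0.64, adjusted p = 6e-07).

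For each exporter called with siMYC, the 2 tested genes with the most similar profile of log2 CPM over the 8 libraries were listed as a description. ABCC3 was most like SEL1L3 (Pearson r = 0.985) and ACP2 (0.983). ABCC1 was most like SUSD2 (0.998) and ITGB3 (0.996), ABCC2 like GRAMD1A (0.982) and FADS2 (0.972), and ABCC4 like MMP24 (0.995) and SIRPA (0.993). ABCC10 was most like PAPPA (0.959) and LEPRE1 (0.948), and ABCB6 like ALDH3B1 (0.974) and FLOT2 (0.973). The libraries share 4 groups, and these r values were the highest of 11218 genes, so they carry no p-value.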

How the data were processed

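RNA was sequenced in 8 A549 libraries, 2 in each of 4 groups. Per the labels' protocols, RNA was column-purified, poly(A)-selected and made into libraries with a commercial kit. Per the submitters' processing notes, the authors used STAR, RSEM and hg19; of their versions, the annotation and the strand setting, nothing is stated in those sources. The deposited tables hold expected counts, TPM and FPKM per gene, as the authors' RSEM run gave them; FPKM was not used.

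Expected counts were rounded and fitted with edgeR 4.0.16 in R 4.3.3: TMM factors, filterByExpr (minimum count 10, minimum total 15), 1 quasi-likelihood fit of all 8 libraries with a term for each of 4 groups, and 4 residual degrees of freedom. A gene was called at a Benjamini-Hochberg adjusted p under 0.05 over 11218 genes. The SE is the log2 fold change divided by the root of F. The 95% intervals use the fit's total degrees of freedom, which add to the residual ones a prior part estimated over all genes. The test was checked on simulated counts. With 2 libraries on each side the smallest exact permutation p is 0.333, so no such test was used. Precision is limited by 820428 to 2129006 counts per library. Replicates differed by 1.14 to 1.79 times counting noise (chi-square per degree of freedom).

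Alternatives were other size factors, other filters, leaving the MGA gene out, DESeq2 1.42.0, limma 3.58.1 on log2(TPM + 1) or log2(TPM + 0.1), a separate fit per experiment, a replicate block and leaving out each library. The members and lists were chosen with earlier results of these data known. Named genes were all members, MGA and MYC, up to 4 called genes with the smallest p of each list per comparison (a selection is printed; ABCA3, ABCA7, ABCD4 and ABCF1 were named after their values were seen), and the 2 genes most like each called member. Alternatives for the other ABC genes and for MYC in the MGA experiment were added after seeing the data. Locations in the deposited build were not analysed here, and 2 genes of the lists are not reported here.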

Additional observations from a re-analysis of the deposited data

Results flagged for a closer look

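The MGA response and the siMYC response differed, by the contrast of the 2 responses in edgeR's quasi-likelihood fit, for 4 of the 8 exporters. Of all genes tested, 18.5% were called for this contrast, 8.22% as lower. The difference was -1.34 on the log2 scale for ABCC3, -1.23 for ABCB6, -0.41 for ABCC1 and -0.39 for ABCC2, with adjusted p-values of 4.2e-08, 0.039, 0.027 and 0.039. In each of the 4 genes the MGA response was negative and not called, and the siMYC response was positive and called. Under 10 other settings with all libraries, the difference was called in 10 for ABCC3, 7 for ABCC1, 7 for ABCB6 and 6 for ABCC2. With 1 library left out it ranged over -1.47 to -1.22 for ABCC3 and -1.98 to -0.80 for ABCB6. The range was -0.50 to -0.31 for ABCC1 and -0.47 to -0.31 for ABCC2. Only ABCC3 kept the call when any 1 library of the MGA experiment was left out. No technical or biological account of these differences was tested.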

How the results depend on the processing

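Counts of exporters called were 0 with MGA, 6 with siMYC and 4 for the difference, and were the same with the letters A and B as a replicate block. The letters were not taken as pairs, since nothing in the labels ties them and deviations of same-lettered libraries correlated at -0.0212 in the MGA experiment and 0.133 in the siMYC experiment, over 2 pairs each; the block gave 1176, 4657 and 2292 calls over all genes. Library sizes alone gave 2 exporters called with MGA. With siMYC, DESeq2 and limma-trend on either TPM scale each gave 2; for the difference these 3 gave 1 each. Leaving out 1 library gave 0 with MGA, 2 to 5 with siMYC and 1 to 4 for the difference. Over all genes, 1005 were called with MGA (556 higher, 449 lower), 358 by DESeq2, 82 and 63 on log2(TPM + 1) and log2(TPM + 0.1), and 402 to 474 without 1 library; the split was 387 to 628 with upper-quartile factors and 300 to 821 with library sizes alone. DESeq2 gave an adjusted p for 5346 genes in the MGA experiment, against 11218 in edgeR, so its 358 calls come from fewer genes. With siMYC 4370 were called, 1971 by DESeq2, and 1245 and 1191 on the TPM scales. For the difference 2076 were called (1154 higher, 922 lower), 827 by DESeq2, 347 and 331 on the TPM scales and 1309 to 1937 without 1 library; the split was 892 to 1101 when the MGA gene was removed, 804 to 1188 under upper-quartile scaling and 714 to 1357 under library sizes alone.

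Direction turned in these cases. ABCC10 was at 0.46 and 0.48 with MGA, and at 0.21 and 0.22 for the difference, on the TPM scales. ABCG2 with siMYC was at 0.038 with RLE factors, 0.035 with upper-quartile factors, 0.036 with library sizes alone, 0.014 at a minimum count of 30, 0.060 without the MGA gene, 0.067 with DESeq2, 0.87 and 0.90 on the TPM scales and 0.032 with the replicate block. Without 1 library, ABCG2 ranged over -0.30 to 0.28 with siMYC and -0.44 to 0.14 for the difference, ABCC4 with MGA over -0.22 to 0.18 and ABCC5 with MGA over -0.15 to 0.79. The cause of these changes was not tested. Of 120 siMYC values of the exporters under alternatives, 85 kept direction and side of the threshold, 24 lost the call and 11 turned; of 118 MGA values, 111 kept both. A group left with 1 library was assumed to vary like the others, and the 14 to 72 counts of ABCC5 limit what could be detected.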

Other observations

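Of all genes tested, 39.0% were called with siMYC and 8.96% with MGA, and the counts that follow stand beside these shares. Of 8 scaffold and trafficking genes tested, 5 rose and 1 fell with siMYC, and none was called with MGA. EZR, the membrane linker ezrin, averaged 256 ± 40.9 CPM in siMYC and 398 ± 47.0 CPM in siNC (log2 fold change -0.65, adjusted p = 1.4e-05). Its relative RDX, radixin, which anchors ABCC2 in liver cells, rose by 0.47 on the log2 scale. PIM1, a kinase that acts on ABCG2, stood at 34.0 and 30.1 CPM in siMYC and 13.6 and 16.3 CPM in siNC (1.09, adjusted p = 0.00058). The calls of EZR, RDX and PIM1 were all lost by limma-trend on either TPM scale.

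Of 17 genes of heme synthesis and handling tested, 1 rose and 5 fell with siMYC, and 1 rose with MGA. HMOX1, which breaks down heme, averaged 430 ± 20.4 CPM in MGA and 190 ± 2.23 CPM in Empty (log2 fold change 1.17, adjusted p = 4.5e-07), and 123 ± 23.8 CPM in siMYC and 74.6 ± 12.5 CPM in siNC (0.69, adjusted p = 0.00039). Of 13 drug uptake carriers tested, 2 rose and 5 fell with siMYC, and 1 fell with MGA. The folate carrier SLC46A1 averaged 38.3 ± 11.9 CPM in siMYC and 73.0 ± 10.9 CPM in siNC (-0.96, adjusted p = 0.00024). In the MGA experiment it averaged 34.0 ± 3.5 CPM in MGA and 61.5 ± 16.5 CPM in Empty (-0.84, adjusted p = 0.041). The MGA call was lost without Empty B, MGA A or MGA B and by DESeq2. Both the MGA call and the siMYC call were lost by limma-trend on either TPM scale.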
